A study of Mus musculus with 4 samples.

Results

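The 36 genes described here encode the digestive enzymes, membrane proteins and proton pump of the lysosome, the regulators TFEB and TFE3, and the proteoglycan core and sulphating enzyme of secretory granules. They were chosen by gene symbol among the 24340 genes of the expression table. The RNA came from bone marrow of C57BL/6 mice, from cells selected as lineage-negative and cKit-positive, in a study of how Tet2 mutation bears on DNA repair and PARP inhibitor sensitivity. The groups were JAK2V617F;Tet2-/- cells given ruxolitinib, JAK2V617F;Tet2-/- control cells, JAK2V617F;Tet2+/+ cells given ruxolitinib and JAK2V617F;Tet2+/+ control cells. All 4 groups carried JAK2V617F, the activated form of the kinase that ruxolitinib inhibits together with JAK1, so no cells with normal JAK2 were compared here. Each group was 1 library, so the differences below lack any check by replicates, and no p-value was computed. The labels give no dose, time of treatment, age or number of animals, and the deposited design text says that Tet2 was inactivated conditionally in blood cells without naming the Cre line. The whole-gene Tet2 level was 4.39 and 3.62 FPKM in the knockout ruxolitinib and knockout control libraries and 5.05 and 4.69 FPKM in the matching wild-type libraries, a measure that does not see a deleted exon.

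Lysosomes are acidic vesicles in which cathepsins cut proteins, glycosidases and sulphatases take apart glycans, and lipases with their helper proteins break down lipids. A proton pump, the V-ATPase, keeps them acid. Transcription factors of the MiT/TFE family (TFEB, TFE3, TFEC and MITF) bind E-box sites in the promoters of many of these genes. Mast cells and other granulocytes keep their mediators in granules related to lysosomes, where proteases and amines are packed onto serglycin, a proteoglycan that in mast cells carries heparin chains.

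Kit, the marker used for selection, lay between 421 and 647 FPKM (fragments scaled by transcript length and library size), and the stem and progenitor surface protein gene Cd34 between 306.8 and 465 FPKM. The progenitor receptor gene Flt3 was listed at 0 in all 4 libraries. The cells also had high levels of mast cell transcripts: 12 of 13 listed mast cell markers were measured, and Cpa3 was listed at 0. The summed FPKM of these markers was 23136 and 19377 in the knockout ruxolitinib and knockout control libraries and 31163 and 27579 in the matching wild-type libraries. Of 14 monocyte and macrophage markers, whose cells are rich in lysosomes, 3 were measured, and all 14 together summed to between 13.6 and 18.8 FPKM in knockout and between 10.8 and 11.03 FPKM in wild-type libraries. The female-specific transcript Xist reached 62.2 FPKM with ruxolitinib and 53.2 without in knockout cells, against 0.0309 with ruxolitinib and 0.0241 without in wild-type cells, so genotype and sex of the animals cannot be told apart. Lamp2, Tfe3 and Atp6ap1 lie on the X chromosome. A gene was called measured where its 4 values averaged 1 FPKM or more, which held for 10471 genes in all and for 33 of the 36. Steps between low values put 1 FPKM on 1 kilobase at 44.3 to 54.9 fragments, depending on the library.

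The promoters of several of the genes hold the E-box letters that MiT/TFE factors are known to bind. RefSeq promoter windows (GRCm38.p6, 250 bases before to 50 after the start) were found for 32 of the 36 genes, and Ctsb, Galns, Asah1 and Atp6v1h had none in the table. CACGTG, which reads the same on both strands, was present in 10 of the 32 genes (31.3%), against 12.3% of 7963 measured genes and 8.09% of all 27025 genes with a window. The longer TCACGTGA, which contains CACGTG, was present in 5 of the 32 genes (15.6%), against 2.49% of measured genes and 1.12% of all genes. These matches describe the letters in the windows and are not shown to be bound in these cells. Windows are shown for the lysosomal membrane protein Lamp1, which had the most matches among the 36 genes, for 3 of the 5 genes with the longer form, and for Man2b1, which had the largest ratio between genotypes and no match. They are Lamp1 (chr8:13158911-13159210, plus strand), Ctsd (chr7:142387778-142388077, minus strand), Ctsa (chr2:164833523-164833822, plus strand), Mcoln1 (chr8:3500269-3500568, plus strand) and Man2b1 (chr8:85083019-85083318, plus strand), written 5′ to 3′ along the gene with the matches in capitals.
Lamp1: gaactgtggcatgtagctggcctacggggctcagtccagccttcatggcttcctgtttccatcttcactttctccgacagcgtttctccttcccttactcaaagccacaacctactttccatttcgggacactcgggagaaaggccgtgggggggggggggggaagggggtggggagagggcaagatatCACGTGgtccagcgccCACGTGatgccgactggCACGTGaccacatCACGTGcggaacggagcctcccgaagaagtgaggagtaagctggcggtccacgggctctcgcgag
Ctsd: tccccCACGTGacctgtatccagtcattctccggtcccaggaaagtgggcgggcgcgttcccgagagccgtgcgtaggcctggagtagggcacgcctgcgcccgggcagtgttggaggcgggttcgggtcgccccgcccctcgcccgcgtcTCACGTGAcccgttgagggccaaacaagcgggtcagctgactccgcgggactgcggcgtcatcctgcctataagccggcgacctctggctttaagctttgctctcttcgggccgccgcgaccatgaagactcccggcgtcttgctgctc
Ctsa: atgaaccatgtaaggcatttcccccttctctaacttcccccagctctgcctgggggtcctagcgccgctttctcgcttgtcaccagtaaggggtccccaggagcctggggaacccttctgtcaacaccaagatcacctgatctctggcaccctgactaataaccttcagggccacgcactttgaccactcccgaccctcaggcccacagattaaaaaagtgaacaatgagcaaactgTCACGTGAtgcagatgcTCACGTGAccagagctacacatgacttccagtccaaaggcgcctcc
Mcoln1: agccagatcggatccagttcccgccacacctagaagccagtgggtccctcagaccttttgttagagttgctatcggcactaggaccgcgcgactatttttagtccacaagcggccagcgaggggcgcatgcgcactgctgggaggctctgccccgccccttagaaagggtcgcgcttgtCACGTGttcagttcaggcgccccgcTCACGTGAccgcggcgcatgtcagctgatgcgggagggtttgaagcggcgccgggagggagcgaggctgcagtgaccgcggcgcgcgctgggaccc
Man2b1: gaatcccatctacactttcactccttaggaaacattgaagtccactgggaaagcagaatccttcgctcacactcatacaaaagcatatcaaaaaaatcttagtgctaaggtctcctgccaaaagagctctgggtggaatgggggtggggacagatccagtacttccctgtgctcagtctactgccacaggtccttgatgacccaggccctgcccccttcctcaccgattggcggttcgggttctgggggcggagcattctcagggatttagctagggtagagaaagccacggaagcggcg
The 4 matches of Lamp1 begin 61, 45, 28 and 15 bases before the start. Those of Ctsd begin 245 and 99 bases before it and those of Mcoln1 71 and 46 bases before it, the second of each pair being the longer form. Ctsa has the longer form in both places, 13 bases before the start and 4 bases past it. The windows of Man2b1 and Ctsa lie inside the listed gene spans, which begin at 85082730 and 164832872. For these genes the start used here is thus downstream of the first base of the span.

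The granule proteoglycan core Srgn and the aspartic protease Ctsd ranked 4 and 8 by mean FPKM among the 10471 measured genes, and the granule tetraspanin Cd63 ranked 29. Together these 3 genes made up between 74.2% and 77.0% of the summed FPKM of the 36 genes in each library. The 36 genes summed to 10757 and 9898 FPKM in the knockout ruxolitinib and knockout control libraries and to 13409 and 13726 FPKM in the wild-type ruxolitinib and wild-type control libraries. As a share of all FPKM in a library this was 2.31% and 2.09% in knockout and 2.62% and 2.61% in wild type. Without Srgn, Ctsd and Cd63 the share was 0.572% and 0.539% in knockout against 0.620% and 0.601% in wild type, again lower in both knockout libraries. At the low end, the cysteine protease Ctsl lay between 0.164 and 0.246 FPKM, the sulphatase Arsb between 0.164 and 0.460 FPKM and Tfeb between 0.415 and 0.487 FPKM, and these 3 were not counted as measured. The other 30 genes had means from 3.09 FPKM, in Ctss, to 250.7 FPKM, in Ndst2.

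**Figure D1:**
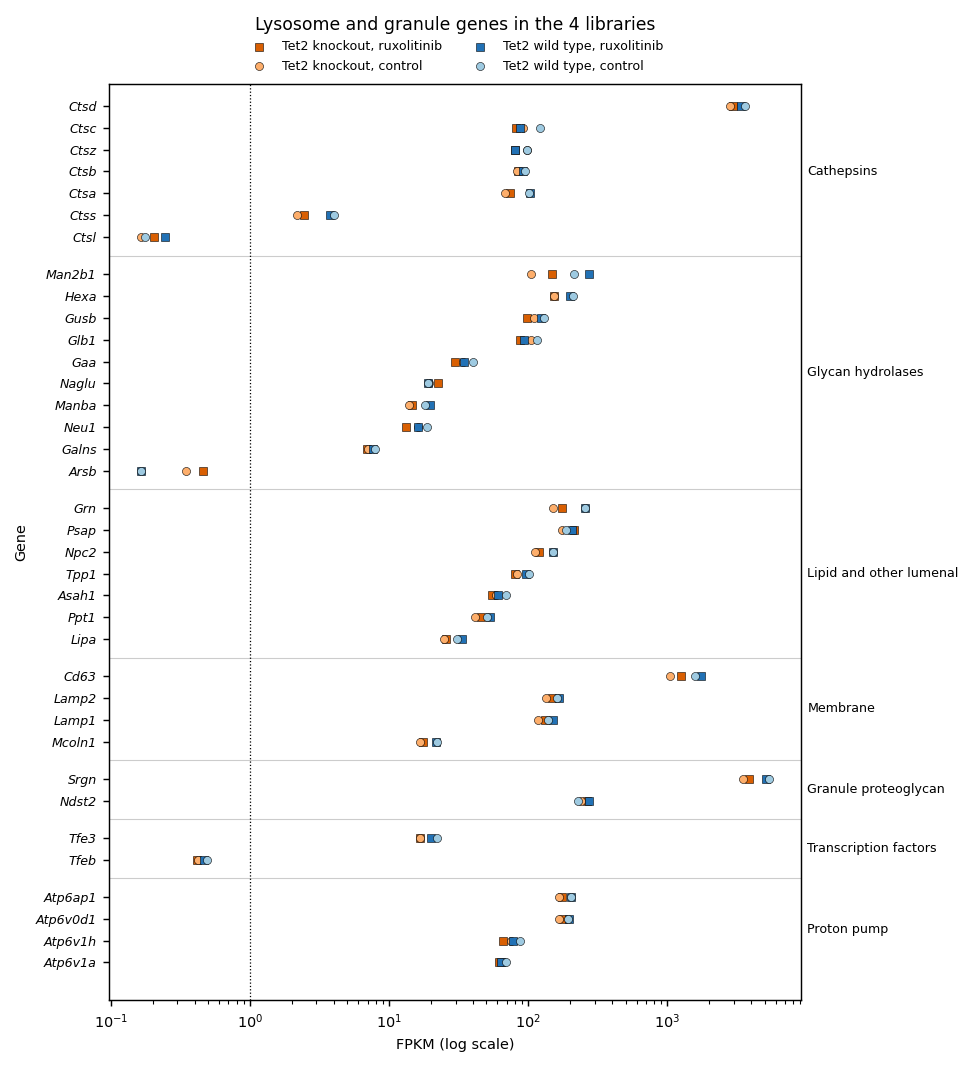
FPKM on a log axis of each of the 36 genes in the 4 libraries, in order of mean level within each class; squares are ruxolitinib and circles control libraries, orange knockout and blue wild type, and the dotted line marks 1 FPKM. Srgn, Ctsd and Cd63 lie to the right of every other gene in all 4 libraries, and for most genes the orange symbols lie to the left of the blue ones.

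Without drug, lysosome and granule genes were lower in the knockout control than in the wild-type control library almost throughout. Of the 33 measured genes, 30 had a negative log2 ratio of FPKM + 1, with a median of -0.28, against a median of 0.00 and 49.1% negative over all measured genes. At 1.5-fold or more, 5 of 33 (15.2%) were lower and 0 higher, against a background of 5.06% lower and 3.88% higher over all measured genes. The 5 genes were the glycosidase Man2b1, the growth factor precursor Grn, the cathepsin Ctss, Srgn and Cd63. Cd63 stood just inside the 1.5-fold limit, with a log2 ratio of -0.59, and the carboxypeptidase Ctsa just outside it, at -0.58. The negative shift was present among abundant genes as well: of the 31 that averaged 10 FPKM or more, 28 were negative, against 49.2% of 6493 genes at that level.

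With ruxolitinib in both genotypes, a pair that shares no library with the control pair, 31 of 33 genes were lower in knockout. Their median log2 ratio was -0.22, against 0.00 and 49.3% negative over all measured genes. Whether libraries of one genotype share animals is not given, and sex differs between genotypes in both pairs. At 1.5-fold or more, 1 of 33 (3.03%) was lower, against a background of 3.34%, and 0 were higher, against 2.97%; the share beyond 1.5-fold was thus close to the background, while the sign was negative in nearly all. Of the 33 genes, 29 had a negative ratio in both pairs and 1, Naglu, a positive ratio in both. Of all 10471 measured genes, 4219 were negative in both pairs and 4337 positive in both, so a shared sign was common among all genes. Across the 33 genes the correlation between the ratios of the 2 pairs was 0.91 (Pearson) and 0.85 (Spearman), against 0.34 and 0.80 over all 10471 genes, as a description across genes, which are not independent replicates. Over all genes the ratios ran from -9.78 to 7.35 without and -9.71 to 7.13 with drug, extremes on which a Pearson value depends. The libraries summed to 466334 and 473933 FPKM in knockout and to 511644 and 526299 FPKM in wild type, and rescaling each library to the same total moved the median of all measured genes to 0.15 without and 0.13 with drug. On the rescaled values 27 of the 33 genes were negative without and 25 with drug. Relative to the rescaled median of all genes, they had a median of -0.28 without and -0.21 with drug, and 30 and 31 of them lay below it. The rescaling shifted all ratios upward, so that 3 of the 33 genes without and 6 with drug turned from negative to positive and 0 turned the other way. Small negative FPKM ratios of the genes and lists below can turn in the same way.

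In the same comparisons the mast cell markers had median log2 ratios of -0.22 without drug, with 10 of 12 negative, and -0.06 with drug, with 6 of 12 negative. The chymase gene Cma1, the most abundant of them, was at 10118 and 8289 FPKM in the knockout ruxolitinib and knockout control libraries, against 15834 and 13677 FPKM in the matching wild-type libraries. Other mast cell markers differed the other way: the tryptase gene Tpsab1 was at 42.9 and 51.98 FPKM in knockout with and without drug, against 10.03 and 23.3 FPKM in wild type, and the receptor gene Mrgprb1 at 6.83 and 6.48 FPKM in knockout, against 0.177 and 0.225 FPKM in wild type. Without drug most of the mast cell list was thus lower in knockout, with 10 of 12 negative. With drug the list had no common direction, with 6 of 12 negative.

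Basophils also hold secretory granules, and all 4 of their listed markers were measured. These markers summed to 553 and 569 FPKM in the knockout ruxolitinib and knockout control libraries, against 366 and 420 FPKM in the matching wild-type libraries, with median log2 ratios of 0.90 with and 0.70 without drug. The protease gene Mcpt8 was at 253.8 and 276.6 FPKM in knockout with and without drug, against 95.6 and 94.4 FPKM in wild type. The protease gene Prss34 was at 12.8 and 11.3 FPKM in knockout, against 0.548 and 0.266 FPKM in wild type. Both were higher in the knockout, where most lysosome and granule genes were lower. The remaining basophil markers, Cd200r3 and Il4, were lower in knockout without drug, with log2 ratios of -0.21 and -0.15. With drug they were higher, at 0.08 and 0.39, so all 4 were higher only in that pair. Whether the cells were a mixture of types is not given. In RNA from many cells, fewer cells of a type and less RNA per cell cannot be told apart. The part of mast cell or basophil content in the lysosome and granule differences was not tested.

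**Figure D2:**
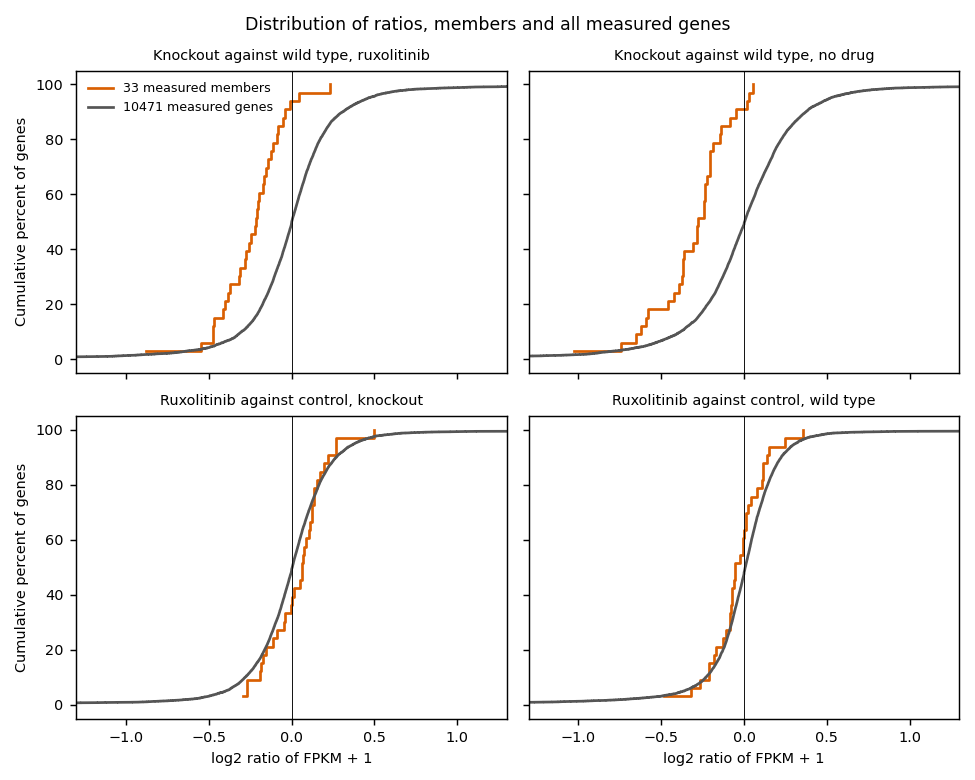
Cumulative percent of genes by log2 ratio of FPKM + 1, for the 33 measured lysosome and granule genes (orange) and all 10471 measured genes (grey), with genotype in the upper and ruxolitinib in the lower panels. In both upper panels the orange curve lies to the left of the grey one over most of its course, with medians of -0.22 and -0.28 against 0.00, while in the lower panels the curves stay close.

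Cathepsins are the proteases of the lysosome. All 6 measured ones were lower in knockout with drug, with a median log2 ratio of -0.15, and 5 of 6 without drug, with a median of -0.38. Ctsd (chromosome 7, 142375910 to 142387827) was at 2977 FPKM with ruxolitinib and 2798 without in knockout cells, against 3406 with ruxolitinib and 3611 without in wild-type cells. Both knockout values lay below both wild-type values, and the log2 ratios between genotypes were -0.19 with and -0.37 without drug. Ctsa, a serine carboxypeptidase that also protects the sialidase Neu1 and the galactosidase Glb1 from degradation, was at 74.0 and 67.7 FPKM in knockout cells with and without drug, against 102.5 and 101.8 FPKM in wild-type cells. Ctss, a protease of antigen processing, was much less abundant, at 2.43 and 2.17 FPKM in knockout with and without drug against 3.75 and 3.99 FPKM in wild type. At the estimated depth, 1 kilobase of Ctss held about 119 fragments in the knockout control and 177 in the wild-type control library. For both genes, too, the genotypes did not overlap. The share of all measured genes without such overlap was not computed. Here and below, statements on overlap therefore only describe the FPKM values of the genes named. A gene without overlap has the same sign in both pairs, and 4219 of all 10471 measured genes were negative in both.

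Ctsc, the dipeptidyl peptidase that activates granule serine proteases, followed another order: 82.0 and 92.4 FPKM in knockout with and without drug, against 86.9 and 121.8 FPKM in wild type. The wild-type control library stood above the other three, and the ratio between genotypes was -0.08 with drug and -0.40 without. Ctsb, a broad cysteine protease, lay between 83.6 and 84.5 FPKM in knockout and between 91.5 and 95.4 FPKM in wild type. Ctsz, a carboxypeptidase, hardly differed between genotypes, at 80.2 and 98.7 FPKM in knockout with and without drug and 80.8 and 97.3 FPKM in wild type. Its values followed the drug instead of the genotype.

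Of the 9 measured glycan hydrolases, 8 were lower in the knockout in each pair, with median ratios of -0.26 with and -0.22 without drug. Man2b1 (chromosome 8, 85082730 to 85098739), the lysosomal alpha-mannosidase that trims N-glycans, differed most of all 36 genes. It was at 148.5 FPKM with ruxolitinib and 104.8 without in knockout cells, against 274.5 with ruxolitinib and 214.4 without in wild-type cells. Its level was thus 1.84-fold lower in knockout with drug and 2.04-fold lower without, and it was the 1 gene beyond 1.5-fold in both pairs. The beta-mannosidase Manba was at 14.5 and 13.9 FPKM in knockout with and without drug, against 19.7 and 18.1 FPKM in wild type. Hexa, the alpha subunit of the hexosaminidase that degrades GM2 ganglioside, was at 152.7 and 152.4 FPKM in knockout against 199.7 and 210.0 FPKM in wild type. In FPKM the genotypes did not overlap in these 3 genes, which has no background share over all measured genes.

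Other glycan hydrolases differed less. Gusb, the beta-glucuronidase, had log2 ratios between genotypes of -0.31 with and -0.24 without drug, and the sialidase Neu1 -0.26 and -0.20. Gaa, the glucosidase that degrades glycogen, had ratios of -0.20 and -0.22, the galactosidase Glb1 -0.09 and -0.14 and the sulphatase Galns -0.13 and -0.14. Naglu, an enzyme of heparan sulphate breakdown, was the exception, at 22.6 and 19.3 FPKM in knockout with and without drug against 19.1 and 18.9 FPKM in wild type. Arsb, which takes sulphate off dermatan sulphate, was below the filter at 0.460 and 0.345 FPKM in knockout against 0.164 and 0.165 FPKM in wild type, about 18.9 fragments per kilobase in the knockout control and 7.32 in the wild-type control library. It was thus higher in both knockout libraries, at a depth where few fragments set the value.

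The lumenal proteins that act on lipids, together with Grn and the peptidase Tpp1, were all negative without drug and 6 of 7 were negative with drug, with medians of -0.28 and, with drug, -0.27. Grn (chromosome 11, 102430507 to 102436809) encodes progranulin, which is cut into granulins in the lysosome. It was at 173.5 FPKM with ruxolitinib and 151.1 without in knockout cells, against 254.0 and 253.6 FPKM in wild-type cells, 1.46-fold and 1.67-fold lower in knockout. Npc2, which carries cholesterol out of the lysosomal lumen, was at 120.0 and 111.3 FPKM in knockout with and without drug, against 149.4 and 149.9 FPKM in wild type. Lipa, the acid lipase, was at 25.7 and 24.7 FPKM in knockout against 33.5 and 30.9 FPKM in wild type. For these 3 genes every knockout FPKM value lay below every wild-type value, again without a background share. Tpp1, the thioesterase Ppt1 and the ceramidase Asah1 had ratios between -0.28 and -0.14 over both pairs. Psap, the precursor of the saposins that help glycolipid hydrolases, overlapped between genotypes, at 211.7 and 175.3 FPKM in knockout with and without drug and 204.9 and 186.2 FPKM in wild type.

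All 4 measured membrane genes were lower in knockout in both pairs, with medians of -0.23 with and -0.31 without drug. Cd63 (chromosome 10, 128896231 to 128912822), a tetraspanin of lysosome and granule membranes used as a sign of degranulation, was at 1257 FPKM with ruxolitinib and 1045 without in knockout cells, against 1746 with ruxolitinib and 1572 without in wild-type cells. Lamp1 and Lamp2 encode the main glycoproteins of the lysosomal membrane. Lamp1 was at 132.7 and 117.9 FPKM in knockout with and without drug, against 149.5 and 138.7 FPKM in wild type. Lamp2, on the X chromosome, was at 147.3 and 135.0 FPKM in knockout, against 165.1 and 160.1 FPKM in wild type. Mcoln1, a calcium channel of the lysosome that acts upstream of TFEB, was at 17.6 and 16.8 FPKM in knockout, against 21.6 and 22.0 FPKM in wild type. The FPKM values of the genotypes did not overlap in any of the 4, a count that has no background share over all measured genes. Rescaling the libraries to the same total raises knockout values relative to wild-type ones. Small gaps, such as those of Lamp1 and Lamp2, can close in this way.

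The 2 granule proteoglycan genes went apart. Srgn (chromosome 10, 62493833 to 62527445), the serglycin core protein, was at 3854 FPKM with ruxolitinib and 3502 without in knockout cells, against 5084 with ruxolitinib and 5383 without in wild-type cells. This was 1.32-fold lower in knockout with drug and 1.54-fold lower without. Ndst2 (chromosome 14, 20723730 to 20734570), the deacetylase and sulphotransferase that starts heparin sulphation in mast cells, was at 264.2 and 237.7 FPKM in knockout with and without drug, and at 271.8 and 229.1 FPKM in wild type. Its log2 ratios between genotypes were -0.04 with and 0.05 without drug, while both libraries with drug exceeded both control libraries.

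Of the regulators, Tfe3 (chromosome X, 7762530 to 7775202) was at 16.8 FPKM in both knockout libraries, against 20.1 and 22.0 FPKM in wild type with and without drug, with ratios of -0.25 with and -0.37 without drug. Tfeb was far lower, at 0.415 and 0.421 FPKM in knockout and 0.464 and 0.487 FPKM in wild type, about 23.1 fragments per kilobase in the knockout control and 21.6 in the wild-type control library. Mitf, the family member needed for mast cell development, was at 26.5 and 23.4 FPKM in knockout and 25.9 and 24.98 FPKM in wild type, without separation of the genotypes. The proton pump subunits and their accessory protein Atp6ap1 had medians of -0.18 with and -0.21 without drug, all 4 negative in both pairs. Atp6ap1 (chromosome X) was at 174.7 and 166.4 FPKM in knockout with and without drug, against 202.0 and 202.7 FPKM in wild type. Atp6v0d1, in the membrane sector, had ratios of -0.15 and -0.21. Atp6v1h, a regulatory subunit of the cytosolic sector, had -0.22 and -0.20, and Atp6v1a, its catalytic subunit, -0.05 in each pair.

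**Figure D3:**
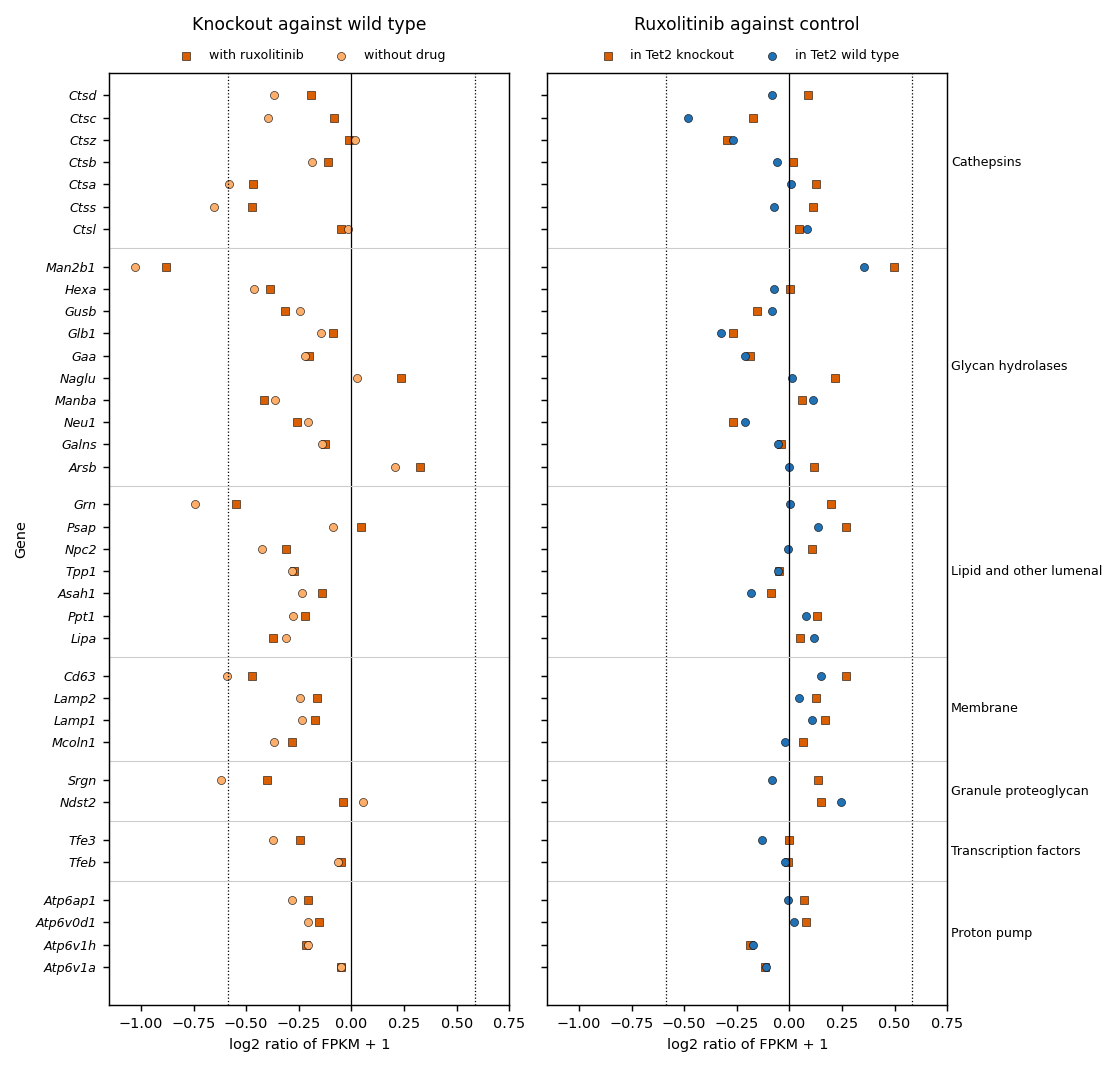
Log2 ratios of FPKM + 1 for each of the 36 genes by class, between genotypes with and without ruxolitinib on the left and between ruxolitinib and control in each genotype on the right; dotted lines mark 1.5-fold. On the left most symbols lie below 0 and Man2b1 lies beyond the dotted line in both pairs, while on the right no symbol reaches a dotted line.

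Ruxolitinib was accompanied by small differences in both directions. In knockout cells, 21 of 33 genes were higher and 12 lower with drug, with a median log2 ratio of 0.07, and in wild-type cells 13 were higher and 20 lower, with a median of -0.06. Over all measured genes, 48.7% were negative in knockout and 47.7% in wild type. None of the 33 genes reached 1.5-fold in either genotype. The background over all measured genes was 1.67% higher and 2.2% lower in knockout and 1.05% higher and 2.64% lower in wild type. Man2b1 was the gene with the largest positive ratio in each genotype, 0.50 in knockout and 0.35 in wild type. Cd63 had ratios of 0.27 and 0.15, Psap 0.27 and 0.14 and Ndst2 0.15 and 0.25, so these 4 genes were higher with drug in both genotypes. Ctsz with -0.30 and -0.27, Glb1 with -0.27 and -0.32, Neu1 with -0.27 and -0.21 and Gaa with -0.19 and -0.21 were lower with drug in both. Across the 33 genes the correlation between the ratios in the 2 genotypes, which share no library, was 0.85 (Pearson) and 0.82 (Spearman), against 0.16 and 0.68 over all measured genes. Over all measured genes these ratios ran from -7.16 to 7.40 in knockout and from -7.43 to 7.27 in wild type. A Pearson value depends on such extremes, which the 33 genes lack.

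The drug ratio in knockout minus that in wild type was positive for 25 and negative for 8 of 33 genes. Its median was 0.08, against -0.01 and 52.6% negative over all measured genes. No gene differed by 1.5-fold, where the background was 1.82% higher and 1.14% lower. Ctsc had the largest difference, 0.31, followed by Srgn at 0.22, Naglu at 0.21 and Grn at 0.20. For Ctsc the drug ratio was -0.17 in knockout and -0.48 in wild type, and for Srgn it was 0.14 and -0.08. By its construction this difference equals the genotype ratio with drug minus that without.

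The authors' deposited table compares pairs of libraries with Cuffdiff and gives a q-value per gene, which does not measure variation between animals. At q below 0.05 it called 12 of 34 genes with a test lower (35.3%) and 0 higher in the knockout without drug, against 9.69% lower and 9.38% higher over all genes tested there. With drug it called 8 of 35 lower (22.9%), against 6.22%, and 1 higher, Arsb, against 7.4%. Man2b1, Grn, Ctsa, Ctss, Cd63, Hexa and Manba were called lower in both pairs of the authors' deposited table. The table gave Man2b1 a q of 0.000746 in each pair, and Cd63 a q of 0.00813 with and 0.00139 without drug. Srgn had a q of 0.00307 without drug and was not called with drug, at a q of 0.0854. For ruxolitinib the authors' deposited table called Man2b1 higher in knockout, with a q of 0.00139, and Ctsc lower in wild type, with a q of 0.00307. The background of these calls was 4.85% higher and 4.73% lower in knockout, and 2.39% higher and 4.14% lower in wild type.

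A smaller and a larger rule of size were also applied. At a ratio of at least 5 to 4, 13 of 33 genes were lower and 0 higher in the knockout without drug, against a background of 12.9% lower and 12.8% higher. With drug, 9 were lower and 0 higher, against 9.03% and 9.45%. For ruxolitinib in knockout, 1 gene was higher and 0 lower, against 7.19% and 7.65%, and in wild type 1 was higher and 2 lower, against 4.61% and 6.06%. At 2-fold, Man2b1 was lower without drug, against 1.7% lower and 1.19% higher, and 0 genes passed with drug, against 1.35% and 1.18%. For ruxolitinib 0 genes passed 2-fold, against 0.63% higher and 0.917% lower in knockout and 0.516% and 1.29% in wild type. The difference of the drug ratios passed neither rule in any of the 33 genes, where the background was 4.38% higher and 2.44% lower at 5 to 4, and 1% and 0.84% at 2-fold.

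Other genes of the same pathways were described from lists. Of 29 other measured lysosomal hydrolases and their cofactors, 26 were lower in the knockout with drug and 28 without, with median log2 ratios of -0.25 and -0.29, close to those of the 36 genes. At 1.5-fold, 3 were lower with drug and 4 without, against the backgrounds of 3.34% and 5.06%. Fuca1, the lysosomal fucosidase, was at 51.6 and 48.1 FPKM in knockout with and without drug, against 94.5 and 86.7 FPKM in wild type. Gm2a, the activator that presents GM2 ganglioside to hexosaminidase, was at 106.5 and 90.9 FPKM in knockout, against 189.4 and 164.8 FPKM in wild type. Ctsf, a cysteine cathepsin, was at 3.84 and 2.83 FPKM in knockout, against 5.77 and 5.99 FPKM in wild type. In each of these 3 genes every knockout FPKM value lay below every wild-type value, a separation without a background share.

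Other lysosomal membrane genes shifted less, with medians of -0.11 with and -0.12 without drug over 20 genes. Cd68, a heavily glycosylated membrane protein, was the 1 gene of this list beyond 1.5-fold, at 21.0 and 20.8 FPKM in knockout and 34.8 and 37.8 FPKM in wild type. This was 5% of the list. For this and the following lists, the background at 1.5-fold was 3.34% lower and 2.97% higher with drug. Without drug it was 5.06% lower and 3.88% higher. The 15 other proton pump genes had medians of -0.09 in each pair. Atp6v0d2, a membrane-sector isoform known from osteoclasts and macrophages, was at 1.15 and 1.20 FPKM in knockout with and without drug, against 5.64 and 8.34 FPKM in wild type, a log2 ratio of -1.62 with and -2.09 without drug. The 15 measured genes of TFEB family control had medians of -0.13 with and -0.11 without drug, with 0 at 1.5-fold. Heparin synthesis genes had medians of -0.06 and -0.04 over 20 genes, with 1 lower gene beyond 1.5-fold in each pair. This was Hs3st1, a sulphotransferase that makes the antithrombin-binding site of heparin, at 19.5 and 18.8 FPKM in knockout and 63.4 and 66.9 FPKM in wild type. Xylt1, which starts the glycan chain on the core protein, was higher beyond 1.5-fold with drug, at 4.78 FPKM in knockout and 2.41 FPKM in wild type. Without drug Xylt1 was also higher, at 5.27 FPKM in knockout and 3.26 FPKM in wild type, just short of 1.5-fold.

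Genes of granule biogenesis and exocytosis had medians of -0.16 with and -0.14 without drug over 21 genes. Slc18a2, the transporter that loads amines into granules, was at 258.6 and 249.4 FPKM in knockout with and without drug, against 352.4 and 384.8 FPKM in wild type, beyond 1.5-fold without drug. With ruxolitinib, the other hydrolases had medians of 0.12 in knockout and 0.04 in wild type, and the other proton pump genes -0.07 in each genotype. The sulphatase Sgsh was the 1 gene of these lists beyond 1.5-fold with drug, at 15.2 FPKM in the knockout ruxolitinib and 9.59 FPKM in the knockout control library. The background there was 1.67% higher.

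**Figure D4:**
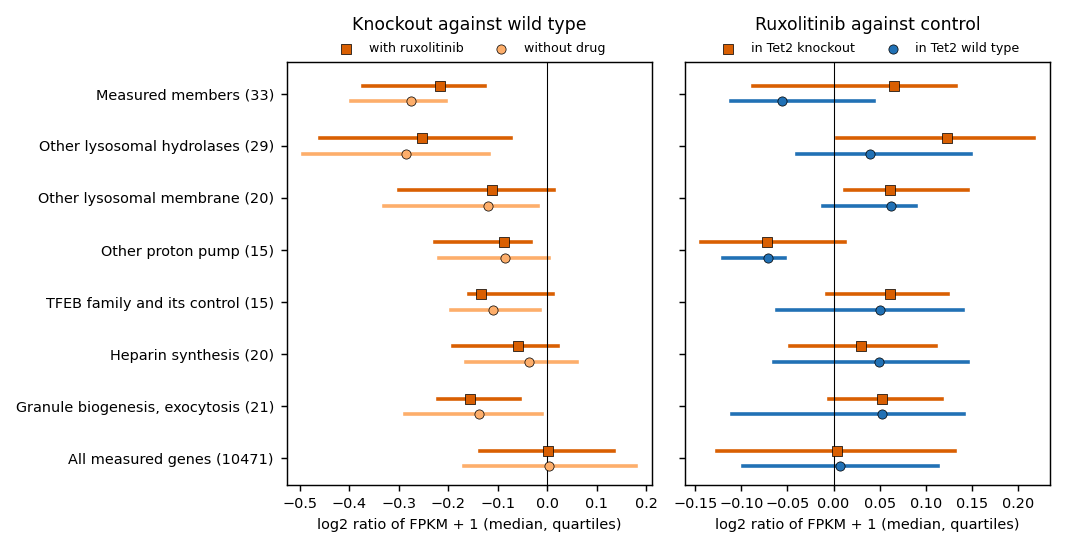
Median (symbol) and quartiles (bar) of the log2 ratio of FPKM + 1 for the 33 measured genes, 6 lists of other lysosome and granule genes and all measured genes, with the number of measured genes in brackets. The 36 genes and the other hydrolases lie lowest between genotypes, with medians from -0.29 to -0.22, and ruxolitinib medians lie between -0.07 and 0.12.

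Some values are limited by overlapping annotation, since the sources used here do not say whether counting used strand. In the GENCODE annotation of the same build, 31.5% of exon bases of Ctsd are shared with the predicted gene Gm49369 on the same strand. On the opposite strand, Ctsb shares 16.3% with Fdft1, Ctsa 13.5% with Pltp and 8.82% with Neurl2, Lamp1 7.94% with Grtp1 and Atp6v1h 5.84% with Rgs20. Glb1 shares 6.89% with Tmppe on its own strand.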

How the data were processed

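Ribosome-depleted total RNA was made into libraries with Illumina protocols, per the labels. The submitters' processing notes name STAR, Cuffdiff and the build mm10. Their versions and the gene annotation are not stated in the sources used here. FPKM values were deposited for 24340 genes in 4 libraries, with any scaling between libraries not stated, and the authors also deposited a table of comparisons of library pairs with log2 fold changes without a pseudocount and q-values. That table holds 6 library pairs, of which 4 were used; its 2 columns of library values were left out.

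Libraries were assigned to groups by their titles. Ratios were taken on log2(FPKM + 1), a scale on which low genes appear to differ less. A mean of 1 FPKM or more made a gene measured, and 1.5-fold was a rule of size, not a test. The 36 genes, their 7 classes and the lists were chosen with earlier results of these data known. Named genes were those at 1.5-fold or more in a pair, the 10 with the largest ratios, the most abundant of each class, and Tfeb, Tfe3, Srgn and Ndst2; of each other list, up to 3 genes at 1.5-fold or more. Other genes named, among them Ctsb, Ctsz, Naglu, Arsb, Lipa, Psap, Lamp1, Lamp2, Mcoln1 and Mitf, were chosen after their values were seen, as was the comparison with genes of at least 10 FPKM.

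For depth, genes with a single annotated transcript of over 1500 bases were used, less 200 bases. Between 79.7% and 86.9% of held-out low values lay within 0.15 of a whole multiple of the step. These are estimates, not counts. The ratio and fold-rule steps were tested on simulated data. Gene coordinates and promoters are from RefSeq (GRCm38.p6, the assembly of mm10), and exon overlaps from GENCODE. Alternatives were pseudocounts of 0.1 and 5, no filter, a filter of 5 FPKM, rescaling to 1000000 per library (TPM), centring on the median of all measured genes, and rules of 5 to 4 and 2-fold. Figures were drawn with matplotlib 3.10.9; Python 3.11.15, pandas 2.3.3, numpy 2.4.6 and scipy 1.17.1 did the rest.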

Additional observations from a re-analysis of the deposited data

How the results depend on the processing

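Rescaled to TPM, the median log2 ratio of the measured genes was -0.13 without and -0.085 with drug for the knockout against wild type, and 3 genes instead of 5 were 1.5-fold lower without drug, against a background on that scale of 4.04% lower and 8.08% higher. With a pseudocount of 0.1, 2 genes instead of 1 were 1.5-fold lower with drug. At 5 to 4, 13 genes were lower in the knockout without and 9 with drug, against a background of 12.9% and 9.03%; 1 was higher and 2 were lower with ruxolitinib in wild type, and 1 was higher in knockout. At 2-fold, 1 gene was lower in the knockout without and 0 with drug. The medians and 1.5-fold counts moved by less than 0.1 (log2) and 1.5 times with a pseudocount of 5, no filter, a filter of 5 FPKM, centring, and, added after seeing the data, leaving out genes on the X chromosome. No paired analysis was possible because each group has 1 library. The lack of replicates limits every comparison here, and counting depth limits Ctsl, Arsb and Tfeb.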

Other observations

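Autophagy genes, whose products deliver cargo to lysosomes, had median log2 ratios of -0.11 with and -0.19 without drug between knockout and wild type, with 15 and 18 of 21 measured genes negative. Sqstm1, a cargo receptor of autophagy, was at 417 FPKM with ruxolitinib and 480.1 without in knockout cells, against 517 with ruxolitinib and 766.1 without in wild-type cells, so the wild-type control library stood above the other three. Map1lc3b, which coats autophagosome membranes, was at 32.9 and 24.3 FPKM in knockout with and without drug, against 42.6 and 39.0 FPKM in wild type. Its relative Map1lc3a was at 8.14 and 6.49 FPKM in knockout, against 11.9 and 10.96 FPKM in wild type. At 1.5-fold, 3 of 21 genes were lower without drug and 0 with drug, against backgrounds of 5.06% and 3.34%.

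The 21 measured genes that sort enzymes to lysosomes, such as M6pr, a mannose 6-phosphate receptor, had medians of -0.04 with and -0.03 without drug and 0 genes at 1.5-fold. M6pr was at 106.7 and 128.9 FPKM in knockout with and without drug and at 106.5 and 123.8 FPKM in wild type, lower with drug in both genotypes. Cathepsin G (Ctsg), a granule serine protease listed here among granulocyte markers and not among the lysosomal cathepsins, was at 27.3 and 27.1 FPKM in knockout with and without drug, against 108.2 and 90.4 FPKM in wild type. The other 9 granulocyte markers stayed below the filter, and several of these low values were higher in knockout. Mpo, the myeloperoxidase gene, was at 1.31 and 1.13 FPKM in knockout with and without drug, against 0.0445 and 0.0380 FPKM in wild type, and the protease gene Prtn3 at 0.293 and 0.546 FPKM in knockout, against 0.191 and 0.0870 FPKM in wild type.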
